A study of Mus musculus with 20 samples.

Results

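Abca7 and 9 related ATP-binding cassette (ABC) transporter genes were followed across cortex RNA of 5xFAD mice in which Abca7 was wild type or edited. The 10 genes are Abca7, Abca1, Abca2, Abca3, Abca5, Abca8a, Abca8b, Abca9, Abcg1 and Abcg4. They were chosen by name, to ask whether relatives change with the edited gene, as transporters of the ABCA and ABCG subfamilies, out of 43346 genes in the count table. All 10 passed the filter on low counts, with between 353 and 17369 counts per library.

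Full-length ABCA transporters such as ABCA1 and ABCA7 move phospholipid, and in the case of ABCA1 cholesterol, from the membrane to lipid-poor apolipoproteins. ABCG1 and ABCG4 pass sterol on to larger lipoprotein particles. In brain the acceptor is mainly APOE, and the liver X receptors (LXR) switch on Abca1 and Abcg1 when oxysterols accumulate. Human ABCA7 is a risk gene for Alzheimer's disease and is also linked to phagocytosis.

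Bulk RNA-seq of total RNA from cortex gave 20 libraries in 4 groups of 5. All animals carried 1 copy of the 5xFAD transgenes (5xFAD+/-), which hold familial Alzheimer's disease mutations and are expressed in neurons. Control mice were Abca7WT/WT and knockin (KI) mice carried the p.A693S change in Abca7, each sampled at ages of 3 and 10 months. According to the protocol the mice were male littermates, with heterozygous and homozygous knockins both mentioned, and zygosity is not given for single KI libraries. Whether the 5 libraries of a group came from 5 animals is not stated outright, so the tests speak for the spread among libraries, which may in part be technical. The study asks how the variant bears on amyloid pathology and on the immune response of the brain. Every group carried the transgenes, so none of the comparisons is with a mouse free of amyloid.

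Totals ran from 42896149 to 57447015 counts per library, and expression is given as CPM, counts scaled to a total of 1000000 per library with TMM factors. Of the 10M KI libraries, replicate 5 had 54206 counts of Xist and 1 of the Y-linked gene Ddx3y, while the other 19 libraries had at most 218 of Xist, which goes against the male animals of the protocol. Counts of Shox2, a gene of thalamus, were 188 and 203 in 3M control replicates 8 and 10, 84 to 387 in all 3M KI libraries and at most 7 in all others, so the tissue taken varied. Choroid plexus markers varied too, with sums from 322 to 3575 CPM in 10M control and from 325 to 2513 CPM in 10M KI. The medians of these sums were 1460 CPM in 10M control and 339 CPM in 10M KI, and 1348 CPM in 3M control and 1860 CPM in 3M KI. The neuronal markers summed to between 21398 and 24141 CPM in every library, a check for neuronal tissue that cannot tell cortex from other brain regions. Values without 10M KI replicate 5, and of age in control without the 2 Shox2 libraries, are given for the genes they touch; the 3M KI libraries all had Shox2 counts, so no fit could leave them out as a group.

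The edited codon is shown first, because the same position can be found in the other ABCA genes of the set. Codon 693 of Abca7 lies at chr10:80003150-80003152 (GRCm38, the build called mm10, + strand), in exon 15 of 46 of the longest coding transcript, and all 3 coding transcripts of the gene carry the alanine named in the label there. The lines give the reference coding strand, 5′ to 3′, from GENCODE M21 transcripts, with the codon for that residue in capitals and 21 bases on each side; the codons of the other genes are the ones aligned to it.
Abca7: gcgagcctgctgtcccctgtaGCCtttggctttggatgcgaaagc
Abca1: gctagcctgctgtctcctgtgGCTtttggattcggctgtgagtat
Abca2: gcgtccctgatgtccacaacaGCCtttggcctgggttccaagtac
Abca3: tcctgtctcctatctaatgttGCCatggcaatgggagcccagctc
Abca5: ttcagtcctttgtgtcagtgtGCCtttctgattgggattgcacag
Abca8a: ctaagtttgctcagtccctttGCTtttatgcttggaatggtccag
Abca8b: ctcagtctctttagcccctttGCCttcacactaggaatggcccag
Abca9: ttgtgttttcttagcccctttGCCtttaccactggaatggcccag
The aligned codon was an alanine codon in all 8 ABCA genes, GCT in Abca1 and Abca8a and GCC in the other 6. It is residue 786 in Abca1, 856 in Abca2, 414 in Abca3, 366 in Abca5, 368 in Abca8a, 367 in Abca8b and 369 in Abca9. The count table holds no base-level data, so the edit itself was not checked in the libraries.

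Abca7 (ENSMUSG00000035722, chromosome 10, 79996494 to 80015572) was expressed at 26.8, 27.2, 27.8, 29.6 and 29.8 CPM in the 3M control libraries and at 18.8, 22.6, 26.6, 27.7 and 31.4 CPM in 3M KI. At 10 months it stood at 22.3, 24.1, 25.9, 30.0 and 32.9 CPM in control and at 19.6, 21.2, 23.9, 26.02 and 29.9 CPM in KI. The ranges overlapped at both ages: 3 of 5 KI libraries at 3 months and 2 of 5 at 10 months lay below every control library, and 1 KI library at 3 months lay above them all. The log2 fold change of KI against control was -0.15 ± 0.13 (SE) at 3 months and -0.16 ± 0.13 at 10 months (edgeR quasi-likelihood test, adjusted p = 1.0 and 0.812). Single libraries moved these values: at 3 months Abca7 was at -0.058 without 3M KI replicate 3 and -0.24 without replicate 6, and at 10 months at -0.098 without 10M KI replicate 5, -0.085 without 10M control replicate 8 and -0.26 without 10M KI replicate 7. None of these fits called Abca7, and all were below 0. Averaged over both ages it was -0.16 with a 95% interval of -0.35 to 0.03, which runs from 0.79-fold to 1.02-fold.

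Neither the edited gene nor any of its 9 relatives passed the test between genotypes at 3 months, at 10 months or in the average of both ages. The background was low: 0.0255% of 19623 genes were called at 3 months, 0.0612% at 10 months and 0.0764% in the average. None of the 10 reached an unadjusted p below 0.05 in the edgeR fit of all 20 libraries without a covariate, where 745, 1543 and 1280 of all genes did. None was called by DESeq2 or by limma-voom with quality weights. With 1 surrogate variable as covariate Abca7 was at -0.21 at 10 months (edgeR unadjusted p = 0.032, adjusted p = 0.318). In the average it was then at -0.18 (edgeR unadjusted p = 0.00959, adjusted p = 0.306), not called. Libraries of the 2 genotypes overlapped for all 10 genes at both ages, against 0.657% of genes without overlap at 3 months and 1.49% at 10 months.

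**Figure D1:**
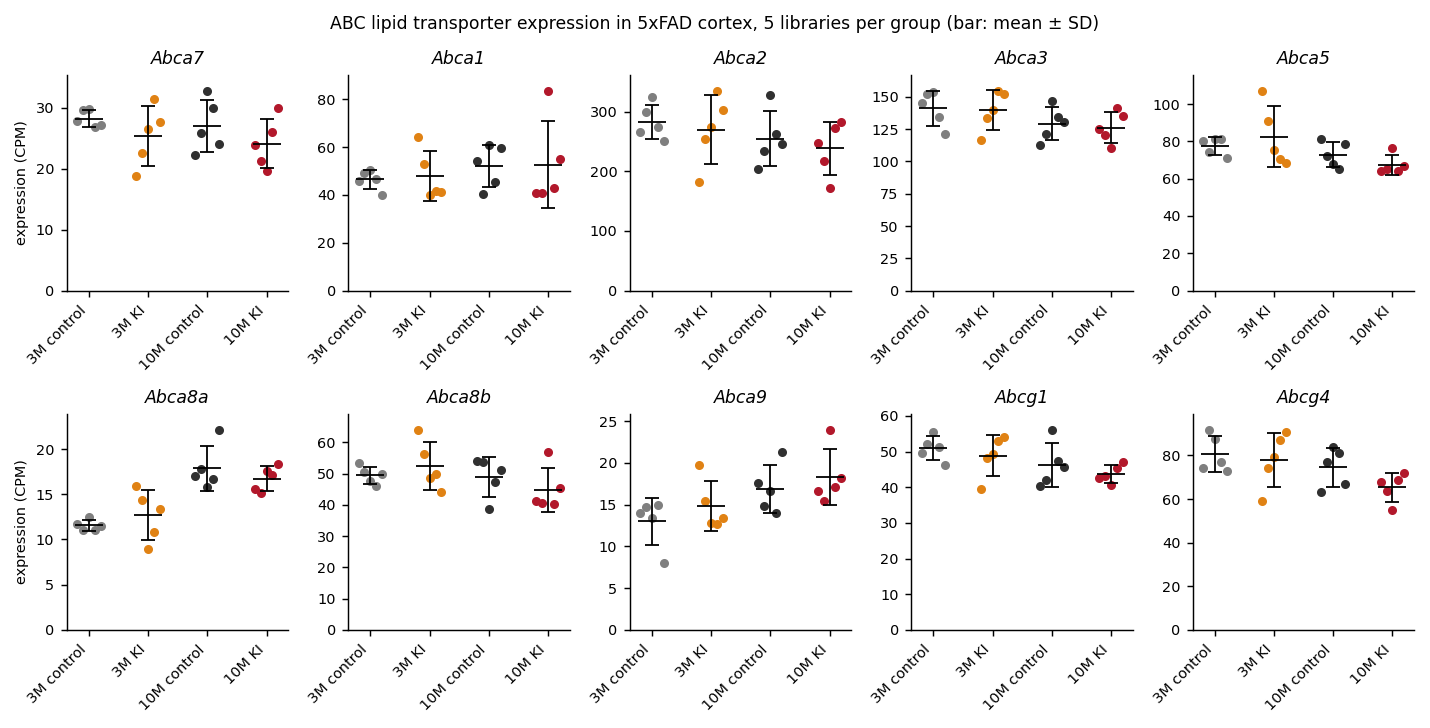
Expression in CPM (vertical axes from 0, one panel per gene) of the 10 transporters in each library, by genotype and age; horizontal bars are the mean and whiskers the SD over 5 libraries. The KI and control points overlap in every panel at each age, and Abca8a is the one gene whose 5 libraries at 10 months in control all lie above those at 3 months.

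Among the efflux genes, Abca1, the main exporter of cholesterol and phospholipid to APOE, was at 40.0, 45.9, 46.9, 49.3 and 50.3 CPM in 3M control and at 40.2, 41.2, 41.7, 52.9 and 64.3 CPM in 3M KI. At 10 months control libraries ran through 40.6, 45.6, 54.0, 59.8 and 60.8 CPM, and KI libraries through 41.0, 41.0, 42.8, 55.0 and 83.7 CPM. The highest of the 20 values, 83.7 CPM, was the library with Xist counts. Abca1 differed between genotypes by a log2 fold change of 0.05 ± 0.18 at 3 months and 0.01 ± 0.18 at 10 months, and averaged 0.03 with an interval of -0.23 to 0.29. Without 10M KI replicate 5 the 10-month value was -0.22, and without 3M KI replicate 3 the 3-month value was -0.08, neither called. The upper bound of the averaged interval is a rise of 1.22-fold, so a larger rise lies outside it.

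Abcg1, which lipidates lipoproteins beyond the first step, was at 50.9 ± 3.38 CPM (SD, n = 5) in 3M control and 48.8 ± 5.72 in 3M KI, then 46.3 ± 6.20 in 10M control and 43.8 ± 2.53 in 10M KI. Its averaged genotype difference was -0.07 (interval -0.20 to 0.06). Abcg4, a close relative of Abcg1 found mainly in neurons and astrocytes, was at 80.7 ± 8.36, 78.1 ± 12.3, 74.5 ± 8.97 and 65.4 ± 6.58 CPM in the same order. At 10 months its difference of -0.19 ± 0.11 had the smallest p of the set in that comparison (unadjusted p = 0.0949, adjusted p = 0.702 in edgeR). For both ABCG genes the means in KI were below those in control at each age, and the libraries overlapped.

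Abca2, a transporter of late endosomes and lysosomes prominent in oligodendrocytes, was the most abundant of the set. Its libraries ran from 251 to 324 CPM in 3M control, 182 to 335 in 3M KI, 203 to 328 in 10M control and 172 to 283 in 10M KI, and its averaged genotype difference was -0.08 (interval -0.30 to 0.14). Abca3, known from lung as the phospholipid transporter of surfactant, had means of 141 ± 13.5, 140 ± 15.5, 129 ± 13.0 and 126 ± 12.3 CPM and an averaged genotype difference of -0.03 (interval -0.16 to 0.11). A processed transcript, D330041H03Rik, overlaps Abca3 with 5575 counts in all libraries together, and whether the counting separated strands was not given, so a small part of the Abca3 signal is uncertain.

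The remaining 4 genes lie in a cluster on chromosome 11, between 109932190 (the start of Abca8b) and 110337716 (the end of Abca5). Abca5, a lysosomal member, had means of 77.6 ± 4.73, 82.6 ± 16.3, 72.9 ± 6.85 and 67.4 ± 5.20 CPM. The large SD of 3M KI came from replicates 3 and 4, at 107 and 91.0 CPM. Its genotype difference was 0.09 ± 0.10 at 3 months and -0.11 ± 0.10 at 10 months. Abca9 had means of 13.0 ± 2.83, 14.8 ± 2.97, 16.9 ± 2.87 and 18.3 ± 3.32 CPM and, of the 10 genes, the highest averaged genotype difference, 0.15 with an interval of -0.09 to 0.39, which is a rise of 1.31-fold at its upper bound. No averaged upper bound in the set was higher than that, while the bounds for single ages went up to 1.44-fold at 3 months and 1.37-fold at 10 months. Abca8a and Abca8b differed by 0.02 (interval -0.16 to 0.20) and -0.02 (interval -0.18 to 0.14).

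Directions between genotypes were mixed. At 3 months 5 of 10 genes were above 0, with a median log2 fold change of 0.01, equal to the median of all genes tested, 0.01. At 10 months 2 of 10 were above 0, with a median of -0.10 against 0.0 for all genes. The genotype by age interaction lay below 0 for all 10, between -0.23 and -0.01, with a median of -0.05, and none of the 10 and none of the 19623 genes was called (0.0%; 883 genes had an unadjusted p below 0.05 in edgeR, DESeq2 called 4 genes and limma-voom 3). The 10 genes come from the same libraries, and the sign of the interaction turned for 6 of them when single libraries were left out.

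**Figure D2:**
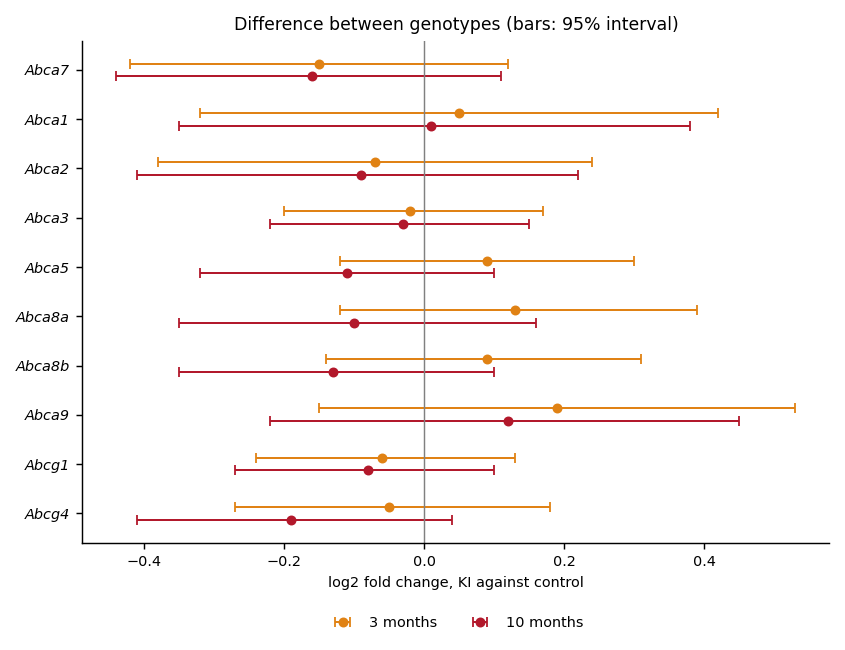
Log2 fold change of KI against control (horizontal axis) for the 10 transporters at 3 months (orange) and 10 months (red); bars are 95% intervals from the edgeR fit. All 20 intervals include 0, and none reaches above 0.53.

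Levels between genes were set side by side per kilobase of the length column in the count table. In CPM per kilobase, averaged over the 20 libraries, Abca2 led at 31.3 ± 5.41 (SD), followed by Abca3 at 15.2 ± 1.60, Abcg4 at 14.3 ± 2.00 and Abcg1 at 11.7 ± 1.26. Abca8b at 6.60 ± 0.861 and Abca5 at 6.57 ± 0.915 could not be ordered, each being the higher in 10 of 20 libraries. Abca1 at 4.81 ± 1.06 stood above Abca7 at 3.88 ± 0.582 in 15 of 20 libraries. Abca8a at 2.35 ± 0.523 and Abca9 at 1.96 ± 0.427 were the lowest, and Abca8a was the higher in 16 of 20. Abca3 was above Abcg4 in 15 of 20. So Abca7 ranked 8 of 10. Summed over the 10 genes the level was 104 ± 7.98 CPM per kilobase in 3M control, 102 ± 9.30 in 3M KI, 97.8 ± 9.40 in 10M control and 91.8 ± 7.35 in 10M KI, and Abca7 made up 4.05%, 3.68%, 4.08% and 3.87% of it.

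With age 1 gene of the 10 was called, in control and, marginally, in KI, a count near the share of all genes given below. Abca8a, whose product is linked to sterol export and, in brain, to sphingomyelin of oligodendrocytes, was at 11.0, 11.1, 11.5, 11.8 and 12.5 CPM in 3M control and at 15.8, 16.7, 17.0, 17.8 and 22.1 CPM in 10M control, with no overlap. In KI it was at 8.97, 10.8, 13.4, 14.4 and 15.9 CPM at 3 months and at 15.1, 15.5, 17.1, 17.6 and 18.3 CPM at 10 months, where 3 of 5 libraries lay above every younger one and the ranges overlapped. Abca8a rose by a log2 fold change of 0.63 ± 0.12 in control (1.54-fold, interval 1.30 to 1.84, edgeR adjusted p = 0.00251) and by 0.40 ± 0.12 in KI (1.32-fold, interval 1.11 to 1.57, edgeR adjusted p = 0.0463). It was the 1 member called of 10 in each comparison, against a background of 4.07% of genes called with age in control and 8.06% in KI (3.72% and 5.66% called higher). Genes without overlap made up 5.69% of all in control and 7.17% in KI. The difference between the 2 rises was not called by the interaction test (-0.23 ± 0.17, interval -0.59 to 0.13, edgeR adjusted p = 1.0).

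The call in control stood under every alternative run, with adjusted p between 5.8e-05 and 0.0197. The call in KI was marginal. It was lost with another scaling (RLE, adjusted p = 0.0579), with no low-count filter (0.0606), with only the compared libraries (0.127), with a choroid plexus score as covariate (log2 fold change 0.39, adjusted p = 0.0793) or a thalamus score (0.66, adjusted p = 0.162), where the fold change stayed or went up, and without any one of 3M KI replicates 5 and 6 or 10M KI replicates 4, 5, 6 and 7, where the adjusted p was between 0.0636 and 0.137. It held in DESeq2 (0.0279), limma-voom (0.00098), with 1 surrogate variable (0.0121) and with the GC index described later as covariate (0.00596).

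Cell markers moved with age beside Abca8a, where 4.07% of all genes were called in control and 8.06% in KI. Of 20 markers of disease-associated microglia 18 rose in control and 20 in KI, and their summed level went from 1364 to 1540 CPM over the libraries at 3 months to 2166 to 3264 CPM at 10 months. Of 14 homeostatic microglial markers 8 and 10 rose. None of 17 markers of mature oligodendrocytes was called, and their sums were 3454 to 5268 CPM at 3 months and 3325 to 4759 CPM at 10 months. In KI, 10 of 13 tested thalamus markers fell with age, from sums of 503 to 755 CPM to 405 to 469 CPM. With group means removed, Abca8a correlated over the 20 libraries at 0.21 with the disease-associated list, 0.09 with the oligodendrocyte list and 0.38 with the thalamus list, which is a description only. Its correlation was -0.48 with the neuron list, the furthest from 0 of the marker lists, and 0.33 with the astrocyte list. In control 1 of the 13 thalamus markers was called lower with age and all 13 were below 0 (median -0.26), and without the 2 Shox2 libraries Abca8a rose by 0.67 (edgeR adjusted p = 0.0197). The part of these markers in the rise of Abca8a was not tested. In bulk tissue more cells of a type and more RNA per cell cannot be told apart.

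**Figure D3:**
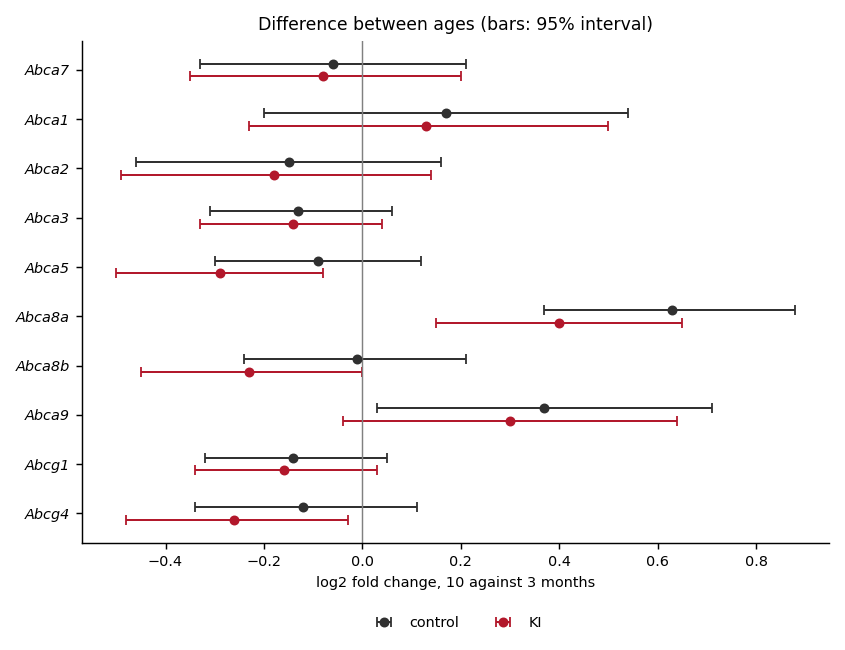
Log2 fold change of 10 against 3 months (horizontal axis) for the 10 transporters in control (black) and KI (red); bars are 95% intervals from the edgeR fit. Abca8a lies above 0 in both genotypes, and the KI interval of Abca5 lies below 0 although its adjusted p of 0.0842 did not pass.

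Abca8b, the gene of the set closest to Abca8a in sequence, was not called with age. Its 5 libraries ran from 46.1 to 53.3 CPM in 3M control, 38.7 to 54.0 in 10M control, 44.1 to 64.0 in 3M KI and 40.3 to 56.8 in 10M KI. The age differences were -0.01 ± 0.11 in control and -0.23 ± 0.11 in KI (edgeR adjusted p = 0.984 and 0.233). The log2 ratio of Abca8a to Abca8b within a library, a measure chosen after these values were seen, was -2.10 ± 0.11 (SD, n = 5) in 3M control and -1.45 ± 0.20 in 10M control, and -2.07 ± 0.27 in 3M KI and -1.41 ± 0.17 in 10M KI. The ages did not overlap in either genotype: in control the ratios ran from -2.19 to -1.93 at 3 months and from -1.67 to -1.21 at 10 months, and in KI from -2.43 to -1.72 and from -1.69 to -1.24, where the gap was small. An exact permutation test was also run on the ratio. Since the values prompted the measure, that test is not used as support and the ratio is a description.

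**Figure D4:**
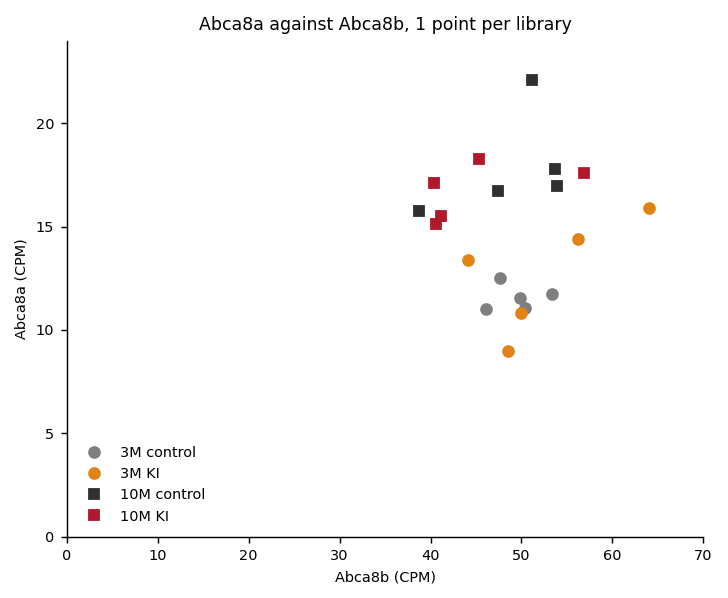
Abca8a against Abca8b in CPM, 1 point per library (circles 3 months, squares 10 months). The 10-month libraries lie at 15.1 CPM of Abca8a and above while Abca8b covers 38.7 to 64.0 CPM over both ages.

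The 2 genes share much of their sequence, which bears on how reads can be assigned. Their coding sequences were 73.6% identical over 4915 aligned bases, with a longest shared run of 97 bases, against 67.9% and 35 bases for Abca8a and Abca9. No source used here says how the counting treated reads that match more than 1 gene. The promoters of the pair are shown because Abca8a was called with age and Abca8b was not. Each line holds the 150 bases before the RefSeq start (GRCm38.p6, - strand, given 5′ to 3′), chr11:110095938-110096087 for Abca8a and chr11:109995846-109995995 for Abca8b, with a match to the E-box CACGTG in capitals.
Abca8a: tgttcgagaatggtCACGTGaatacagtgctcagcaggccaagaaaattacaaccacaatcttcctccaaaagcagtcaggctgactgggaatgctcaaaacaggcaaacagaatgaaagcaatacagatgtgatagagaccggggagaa
Abca8b: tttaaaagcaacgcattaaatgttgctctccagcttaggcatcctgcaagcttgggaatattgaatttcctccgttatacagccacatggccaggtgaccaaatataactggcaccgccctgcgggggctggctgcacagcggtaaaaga
Of the 8 genes of the set with a promoter in the table, Abca1 and Abca8a held the E-box within 250 bases before the start, searched on both strands, as did 6.021% of 32851 promoters. AGGTCA, a core that nuclear receptors such as LXR bind, was in none of the 8 on either strand and in 14.024% of all promoters. Only this exact string was searched. Variants of it were not looked for, so its absence does not show that a promoter lacks an LXR site. The 250-base window had a GC content of 43.2% in Abca8a and 48.8% in Abca8b, against a median of 52.4%. These letters are a description of the windows and say nothing of factor binding.

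The other 8 genes did not pass with age in the edgeR fit. Abca9 had 0.37 ± 0.16 in control (adjusted p = 0.297) and 0.30 ± 0.16 in KI. Abca1 had 0.17 ± 0.18 and 0.13 ± 0.18. Abca7 was near 0 in both genotypes, at -0.06 ± 0.13 and -0.08 ± 0.13. Abca2, Abca3, Abca5, Abcg1 and Abcg4 were below 0 in both, and the KI values of Abca5 (-0.29 ± 0.10, adjusted p = 0.0842) and Abcg4 (-0.26 ± 0.11, adjusted p = 0.167) were the lowest. The 2 age comparisons share no libraries. The median of the 10 was -0.08 in control and -0.15 in KI, with 0.0 for all genes tested in both. In KI the number of members called depended on the tool: 2 in DESeq2 (Abca5 added), 5 in limma-voom, 4 with a surrogate variable and 7 with the GC index, of which 1, Abca8a, was higher. The same fits called 10.7%, 15.4%, 13.6% and 20.8% of all genes, against 8.06% in edgeR without a covariate.

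The 10 genes fell into a pair of sets that varied against each other between libraries of the same group. With group means removed, Abca7 correlated over 20 libraries at 0.94 with Abca2, 0.89 with Abcg4, 0.86 with Abca3 and 0.85 with Abcg1, and at -0.79 with Abca5, -0.69 with Abca8b, -0.44 with Abca9, -0.42 with Abca8a and -0.40 with Abca1. Over all pairs between the sets the correlations were negative, from -0.82 (Abca5 and Abcg4) to -0.12 (Abca3 and Abca9), so some pairs were only weakly opposed. These values share libraries and depth and are descriptions without a test. Outside the set, the 5 genes most like Abca7 by this measure, among 13868 ranked, were Dnm2 (0.966), Tyw1 (0.951), Nle1 (0.946), Zmiz1 (0.945) and Map2k7 (0.945). On log2 CPM without removing group means they were Map2k7 (0.944), Zmiz1 (0.942), Zswim8 (0.941), Shank3 (0.937) and Smarcc2 (0.932).

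The same split followed the base composition of the transcripts. The longest transcripts of Abca7, Abcg4, Abca2, Abca3 and Abcg1 had GC contents of 58.9%, 57.7%, 57.5%, 54.8% and 52.7%, all above the median of 49.6% over 15315 genes, while those of Abca1, Abca9, Abca8a, Abca8b and Abca5 had 47.5%, 44.2%, 43.4%, 42.7% and 39.8%. A GC index was computed for each library as the mean log2 CPM of the top quartile of genes by GC content (54.4% and above) minus that of the bottom quartile (44.9% and below), each gene centred over all libraries, without the 10 genes. It ran from -0.78, in 3M KI replicate 3, to 0.45, and its group means were 0.03 ± 0.15, -0.05 ± 0.45, 0.04 ± 0.29 and -0.02 ± 0.22 (SD). With group means removed, all 5 GC-rich members correlated with it at 0.87 to 0.95 and all 5 others at -0.89 to -0.48. Such values were common, since 19.5% of all genes had a correlation above 0.8. The cause of this axis was not tested. With the index as a covariate the 10 genes again had no call between genotypes, and the averaged difference of Abca7 was -0.12 (unadjusted p = 0.0151, edgeR adjusted p = 0.268).

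**Figure D5:**
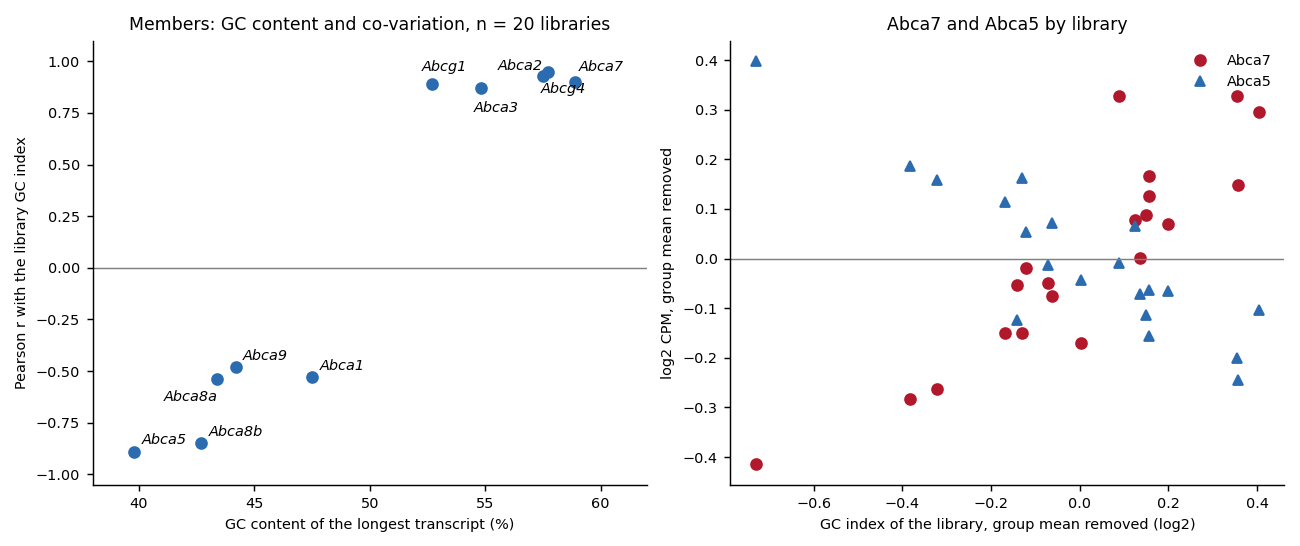
Left, the correlation of each transporter with the GC index of the libraries (vertical axis, group means removed, n = 20) against the GC content of its longest transcript in percent. Right, log2 CPM of Abca7 (circles) and Abca5 (triangles) against the index in each library, group means removed; Abca7 goes up and Abca5 down along the index.

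Genes around the transporters gave a background for these values. The lists were chosen with earlier results of these data known. Over all 19623 genes tested, 3.72% were called higher with age in control and 5.66% in KI. In either direction these shares were 4.07% and 8.06%. Of the 12 other ABCA and ABCG genes 7 were tested and none was called in any of the 6 comparisons. Of 29 tested genes of the other ABC subfamilies none was called between genotypes. With age in control 4 rose and none fell: Tap1, a peptide transporter of antigen presentation (1.16 ± 0.16), its partner Tap2 (0.68 ± 0.16), the drug efflux pump Abcb1b (0.59 ± 0.12) and Abcc3 (0.81 ± 0.21). In KI 3 rose, Tap1 (0.91 ± 0.16), Abcb1b (0.70 ± 0.12) and Abcc3 (0.77 ± 0.21), and Abcc5 fell by 0.23 ± 0.06 on the log2 scale.

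Of 19 tested genes of the LXR and RXR list, which holds the receptors and targets other than the transporters, none was called between genotypes. Mylip, a ubiquitin ligase, and Lpl, lipoprotein lipase, rose with age in control (0.34 ± 0.08 and 0.82 ± 0.20) and in KI (0.37 ± 0.08 and 0.65 ± 0.20). Among the 20 genes for apolipoproteins, acceptors and receptors, none was called between genotypes at 3 or at 10 months. Those that rose with age in both genotypes included Lpl and Trem2, a lipid-sensing receptor of microglia, which rose by 2.02 ± 0.13 in control and 2.68 ± 0.13 in KI.

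Of 25 SREBP2 target genes, which sterol depletion switches on and which make or take up cholesterol, none was called between genotypes at 3 months and 24 of 25 were above 0. At 10 months 4 were higher in KI and none lower, led by Insig1 (82.5 against 116 CPM, 0.49 ± 0.07), the protein that holds SREBP2 in the endoplasmic reticulum. In the average 5 were higher and none lower, with a median of 0.19 against 0.0 for all genes. Of all genes tested, 0.0612% were called between genotypes at 10 months and 0.0764% in the average, in either direction. The summed level of the list ran from 1584 to 1912 CPM in 3M control, 1886 to 1995 in 3M KI, 1889 to 2094 in 10M control and 2232 to 2308 in 10M KI. The genotypes thus overlapped at 3 months and not at 10 months, where 1.49% of single genes had no overlap. This sum is a description, since the list was chosen with earlier results of these data known. With age 8 of the 25 rose in control and 10 in KI, and none fell, where 3.72% and 5.66% of all genes were called higher. The transporters of the set, by comparison, had no call between genotypes.

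Of 21 genes of sterol uptake, storage and turnover none was called between genotypes. With age Npc2, which hands sterol on in the lysosome (0.72 ± 0.07 and 0.85 ± 0.07), Stard4 (0.36 ± 0.08 and 0.48 ± 0.08) and Ch25h, which makes an oxysterol that activates LXR (2.59 ± 0.28 and 3.27 ± 0.28), rose in control and in KI, and Tmem97 rose in KI. Ch25h, with a mean of 0.753 CPM, was named after its values were seen. Of 20 phagocytosis partners none was called between genotypes. With age 5 rose in control and 6 in KI, among them in both the complement genes C1qa, C1qb and C1qc and the receptor gene Axl.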

How the data were processed

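The members and gene lists were chosen with earlier results of these data known. The authors deposited 1 table of raw read counts per gene for the 20 libraries, with a length per gene that was used only for CPM per kilobase. The build is mm10 per the submitters' processing notes, and the aligner, counting program and strand setting are not given in the sources used here. Counts were tested with edgeR 4.0.16 (R 4.3.3, quasi-likelihood F test, robust) on 4 group means over all 20 libraries, after filterByExpr (19623 genes) and TMM scaling (factors 0.972 to 1.03), with Benjamini-Hochberg adjustment over all genes and calls at 0.05. Intervals are 95% intervals from the same fit. The test was also tried, after the fit, on counts simulated from the fitted means and spread, whose results are not given here.

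Alternatives were RLE scaling, no filter, a mean of at least 1 CPM, DESeq2 1.42.0, limma-voom (limma 3.58.1), only the compared libraries, a replicate block, 1 surrogate variable (sva 3.50.0), choroid plexus or thalamus scores, a looser threshold (0.10), and each library left out in turn. A fit without the 3M control libraries of over 50 Shox2 counts and a GC index as covariate were chosen after seeing the data. The index was first run with group means removed. That version was discarded because it lowers the residual spread without adjusting any group difference, so its p-values are too small, and it is replaced by an index centred over all libraries. The discarded version called 1 member at 10 months and in the average between genotypes, 2 with age in control and 7 with age in KI.

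Named genes are the 10 members in every comparison, up to 4 genes of smallest p per list with a mean of at least 1 CPM, and the 5 genes most like Abca7 (Ch25h is named outside this rule). Correlations use log2 CPM with a prior count of 2. The codons aligned to the edited codon of Abca7 were found by global alignment of the translated proteins to that of Abca7 (Biopython 1.88). Identities between coding sequences came from blastn 2.17.0. Of the 10 members, 9 have the coordinates of GENCODE M21. One gene of the lists is not reported here.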

Additional observations from a re-analysis of the deposited data

Results flagged for a closer look

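In 2 of the 40 groups of 5 libraries tested (10 genes in 4 groups), 1 library stood apart from the other 4 by Dixon's criterion, and chance alone flags about 1 in 20 groups. Abca5 was at 76.5 CPM in 10M KI replicate 5, the library with Xist counts, where the next value was 66.9 CPM. Abca9 was at 8.07 CPM in 3M control replicate 10, 1 of the 3M control libraries with Shox2 counts, where the next value was 13.4 CPM. No cause was tested for either.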

How the results depend on the processing

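No member was called between genotypes or in the interaction under the settings given here. The only exception among all runs was the discarded GC index with group means removed, whose p-values are too small. It called 1 member at 10 months and 1 in the average. The rise of Abca8a with age in control was called under all the settings given here, and the call in KI was not. The causes of the changes below were not tested. Members had 353 counts or more in every library, and 5 libraries a group limit how small a difference can be called.

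With DESeq2, the genes called numbered 12 between genotypes at 3 months, 59 between genotypes at 10 months, 49 between genotypes in the average and 4 in the interaction. With limma-voom, the genes called numbered 12 between genotypes at 3 months, 75 between genotypes at 10 months, 58 between genotypes in the average, 1254 with age in control, 3027 with age in KI and 3 in the interaction. With only the compared libraries, the genes called numbered 7 between genotypes at 10 months and 958 with age in KI. With the replicate block, the genes called numbered 4 between genotypes at 10 months and 4 between genotypes in the average. With 1 surrogate variable, the genes called numbered 37 between genotypes in the average and 2667 with age in KI. With the choroid plexus score, the genes called numbered 7 between genotypes at 10 months. With the thalamus score, the genes called numbered 510 with age in control and 264 with age in KI. With the threshold 0.10, the genes called numbered 31 between genotypes in the average. With the 2 3M control libraries of high Shox2 left out, the genes called numbered 502 with age in control. With the GC index, the genes called numbered 11 between genotypes at 3 months, 82 between genotypes at 10 months, 70 between genotypes in the average, 2023 with age in control and 4087 with age in KI. The members called with age in KI, 1 in the report, numbered 0 with RLE scaling, no low-count filter, only the compared libraries, the replicate block, the choroid plexus score and the thalamus score, 2 with DESeq2 and with the threshold 0.10, 4 with 1 surrogate variable, 5 with limma-voom and 7 with the GC index; with age in control they numbered 3 with the GC index.

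With limma-voom, the log2 fold change turned sign between genotypes at 3 months for Abca1 (-0.12), Abca3 (0.011), Abca5 (-0.043), Abca8a (-0.096) and Abcg4 (0.013), between genotypes at 10 months for Abca1 (-0.14), Abca2 (0.014) and Abca3 (0.011), between genotypes in the average for Abca1 (-0.13), Abca2 (0.0038), Abca3 (0.011) and Abca8a (-0.13), with age in control for Abca8b (0.030), in the interaction for Abca2 (0.020) and Abca9 (0.019). With 1 surrogate variable, the log2 fold change turned sign with age in control for Abca8b (0.0075), in the interaction for Abca1 (0.021). With the thalamus score, the log2 fold change turned sign between genotypes at 3 months for Abca3 (0.013) and Abca8a (-0.015), between genotypes in the average for Abca8a (-0.053). With the GC index, the log2 fold change turned sign between genotypes at 3 months for Abca1 (-0.023) and Abca3 (0.011), between genotypes at 10 months for Abca1 (-0.053), between genotypes in the average for Abca1 (-0.038), Abca3 (0.0024) and Abca8a (-0.010), in the interaction for Abca7 (0.0033).

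The replicate numbers share no more than a number. Among 18 library pairs of equal number the correlation of deviations ran from -0.343 to 0.284, above 0.1 in 3 pairs, and 1 library of 20 was most like one of its own number. Controls carry numbers 6 to 10 and KI 3 to 7, so genotypes meet in 2 numbers only under the block. With the replicate block the Abca8a call with age in KI was lost (0.42, edgeR adjusted p = 0.0796). With the replicate block, the log2 fold change turned sign between genotypes at 3 months for Abca7 (0.13), Abca1 (-0.049), Abca2 (0.26), Abca3 (0.15), Abca5 (-0.090), Abca8b (-0.13), Abcg1 (0.12) and Abcg4 (0.12), between genotypes at 10 months for Abca7 (0.13), Abca1 (-0.11), Abca2 (0.25), Abca3 (0.13), Abca9 (-0.046) and Abcg1 (0.12), between genotypes in the average for Abca7 (0.13), Abca1 (-0.078), Abca2 (0.26), Abca3 (0.14), Abca9 (-0.0063), Abcg1 (0.12) and Abcg4 (0.057), in the interaction for Abca7 (0.0035).

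Leaving out 1 library at a time, values that turned sign or counts that moved ranged between genotypes at 3 months from -0.077 to 0.11 (Abca1), -0.16 to 0.045 (Abca2), -0.068 to 0.042 (Abca3), -0.019 to 0.14 (Abca5), -0.11 to 0.0099 (Abcg1) and -0.12 to 0.038 (Abcg4). They ranged between genotypes in the average from -0.084 to 0.068 (Abca1), -0.056 to 0.00050 (Abca3), -0.070 to 0.013 (Abca5), -0.029 to 0.066 (Abca8a) and -0.071 to 0.0032 (Abca8b). They ranged with age in control from -0.051 to 0.059 (Abca8b). They ranged in the interaction from -0.11 to 0.075 (Abca7), -0.26 to 0.086 (Abca1), -0.15 to 0.083 (Abca2), -0.083 to 0.035 (Abca3), -0.19 to 0.051 (Abca9) and -0.098 to 0.057 (Abcg1). They ranged with age in KI from 0 to 2 (members called), -0.18 to 0.012 (Abca7) and -0.096 to 0.26 (Abca1). They ranged between genotypes at 10 months from 7 to 14 (genes called), -0.22 to 0.093 (Abca1), -0.17 to 0.013 (Abca2), -0.079 to 0.016 (Abca3) and -0.00030 to 0.21 (Abca9).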
